A study of Pinctada imbricata with 5 samples.

Results

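Actin, myosin and muscle filament genes of a pearl oyster were followed in its pearl sac by digital gene expression profiling, in which short tags cut from messenger RNA at CATG sites are counted. The pearl sac is the pouch of mantle-derived epithelium that encloses an implanted nucleus and deposits the pearl. Tissue came from animals aged 1.5 years, on days 10, 15, 20, 30 and 60 after surgical implantation, with 1 library per day and no further genotype or treatment in the labels. The labels give the species as Pinctada imbricata, the series title as Pinctada martensii, and neither says how many animals were combined. Members were the unigenes (assembled transcripts) whose best protein match held 1 of 15 words as a whole word, among them actin, myosin, troponin, profilin, gelsolin and Arp2/3. This gave 61 of the 19415 unigenes listed in the 5 libraries, all chosen by name and none by level.

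Actin polymerises into filaments that shape the cell cortex, carry cargo and drive cell migration. In muscle the same filaments slide along thick filaments of myosin under the control of troponin and tropomyosin, and in molluscan muscle calcium acts on the myosin light chains as well. The Arp2/3 complex starts new filament branches, profilin delivers actin subunits, capping protein and gelsolin stop or sever filaments, and non-muscle myosin II contracts them. A pearl sac could hold epithelium, wound-healing and blood cells (hemocytes), and gonad or muscle from the host.

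By role, the 61 members were 8 actins, 11 actin-related or Arp2/3 proteins, 13 myosin heavy chains, 4 myosin light chains and light chain kinases, 9 muscle filament proteins, 14 actin-binding proteins and 2 SWI/SNF chromatin regulators that entered through the phrase actin-dependent. No listed unigene matched tropomyosin, paramyosin or cofilin by name. Only 5341 of all listed unigenes (27.5%) had a protein match, so such genes could be among those without one. The best match was a bivalve protein for 15 members and a Pinctada protein for 1. In the deposited gene ontology terms 11 members carried cytoskeleton, of 38 unigenes in all, and 9 carried actin binding, of 21.

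Levels are given as tags and as scaled TPM, the deposited TPM (tags per 1000000 of the library's total) divided by the library's TMM factor, which aligns the bulk of genes between libraries. The totals were 4700927 to 4784094 tags, of which the listed unigenes held 12.8% to 28.0%. The tables list no tag with fewer than 2 copies, so 0 tags means not listed. A member was called higher or lower where the whole 95% Clopper-Pearson interval of its ratio lay beyond 2-fold and the larger of the levels was 1 scaled TPM or above. Intervals cover counting error only, because 1 library per day gives no measure of the spread between animals or preparations, and so no test between days. Where 1 library listed no tag, the fold is a lower bound against a floor of 3 tags in that library. In bulk tissue, fewer cells of a type and less RNA per cell cannot be told apart.

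Of the 61 members, 30 reached 1 scaled TPM in some library, 13 reached 5, 7 reached 10 and 2 reached 100. The other 31 stayed under 1 scaled TPM everywhere, with at most 5 tags in any library. On every day 16 members were listed, and 22 were listed on a single day, which was day 15 for 11 of them, day 60 for 6, day 30 for 3 and day 10 for 2. Of all unigenes 38.6% were listed on a single day, as were 36.1% of the members, and day 15 was that day for 40.7% of those unigenes and day 60 for 20.3%. Summed over all members the level in order of day was 1105 scaled TPM (95% Poisson interval 1074 to 1136), 817, 1600.1, 467 and 360 (344 to 376). Actins made up 82.7% to 96.6% of the members' tags, so the sum follows them.

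**Figure D1:**
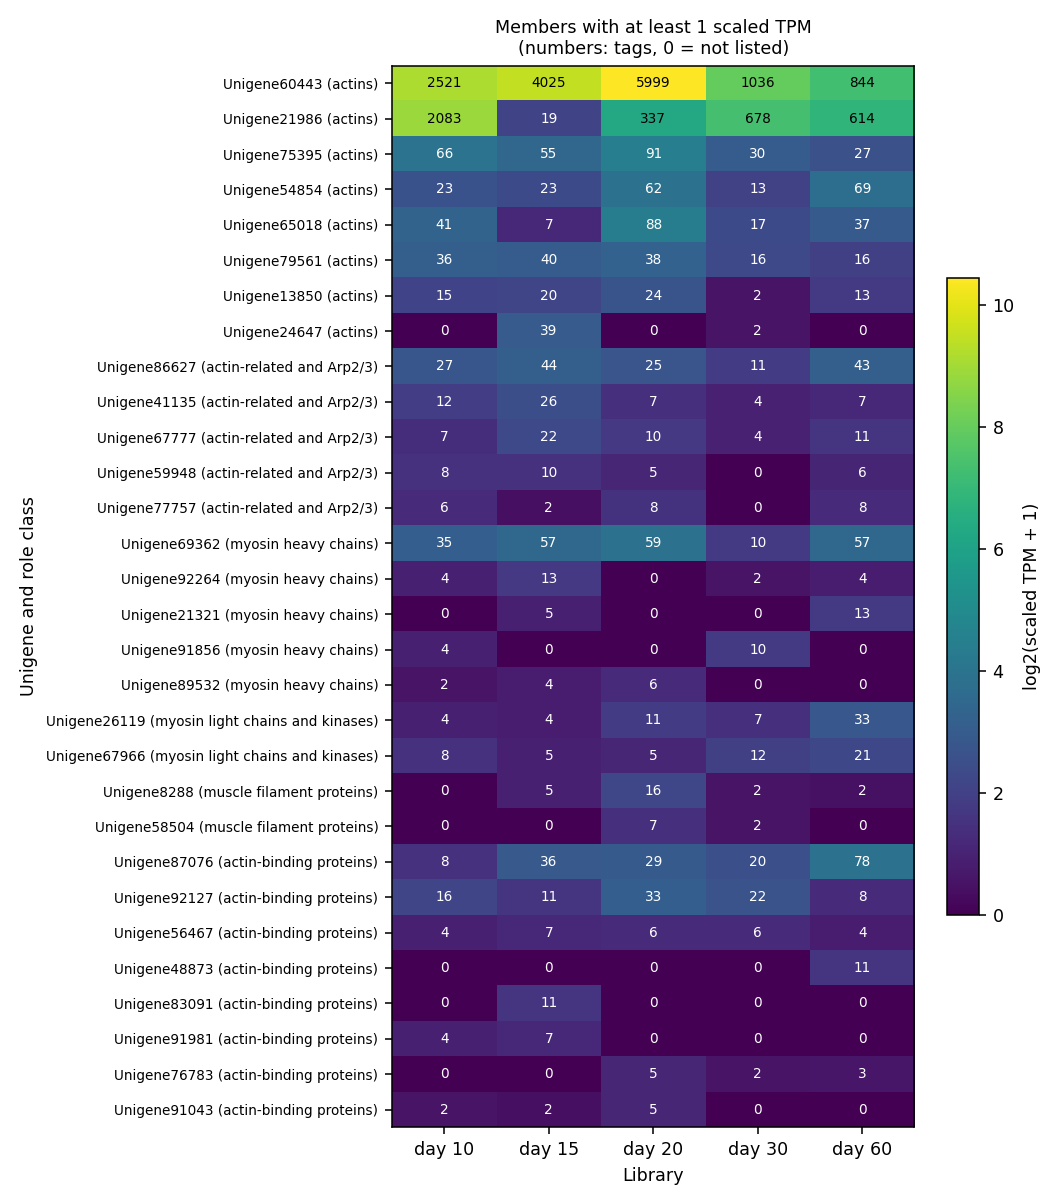
Level of the 30 members with at least 1 scaled TPM in some library, as log2(scaled TPM + 1) by colour, with the tags printed in each cell (columns: libraries; rows: unigenes by role). The first 2 rows, both actins, stand above all others, except the second on day 15 with 19 tags. Every cell of the other rows holds fewer than 100 tags.

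The most abundant member, Unigene60443, matched actin of the oyster Crassostrea gigas and was highest on day 20. It had 2521, 4025, 5999, 1036 and 844 tags on days 10, 15, 20, 30 and 60. Its scaled TPM was 562, 725 and 1391 on days 10, 15 and 20, and 251 and 155 on days 30 and 60. By tags it was 13th among the 8824 unigenes listed on day 20 and 77th among the 10456 of day 60. The day 20 level was 2.47-fold that of day 10 (2.36 to 2.59) but 1.92-fold that of day 15 (1.84 to 2.00), so it did not peak by the 2-fold rule. Day 30 was 5.54-fold lower than day 20 (5.19 to 5.92), and day 60 was 3.62-fold lower than day 10 (3.35 to 3.92).

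Next in level, Unigene21986 matched non-muscle actin 6.2 of the box jellyfish Malo kingi. Unlike Unigene60443, it was lower on day 20 than on day 10, by 5.95-fold (5.30 to 6.69). Its tags numbered 2083, 19, 337, 678 and 614 in order of day. Day 15 was 136-fold below day 10 (86.7 to 226) and 22.8-fold below day 20 (14.4 to 38.4). A peak was a day that passed the rule as higher against each of the other 4. Among the 9515 unigenes that reached 1 scaled TPM, 9.74% peaked on some day (1.47%, 3.84%, 2.1%, 0.914% and 1.42% on days 10, 15, 20, 30 and 60), and 2 of the 30 members did, Unigene21986 on day 10 and Unigene24647 on day 15. Day 30 was 2.10-fold above day 20 (1.84 to 2.40), which did not pass the rule, and day 60 remained 4.12-fold below day 10 (3.76 to 4.51). On day 15, when Unigene60443 stood at 725 scaled TPM, Unigene21986 was at 3.42.

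The tags of these genes are shown because they decide which actin is counted. In the first group capitals mark the CATG site, and Unigene60443 was read almost wholly from a single tag at site 3, counting sites from the 3′ end (14416 of 14425 tags), with 6 tags at the 3′-most site.
Unigene60443, site 3: CATGaaacaacatacaacagt
Unigene75395, site 2: CATGtacgtagctatccaggc
Unigene54854, site 1: CATGaggtagtcagtaagatc
Unigene24647, site 1: CATGgactctggacaacggaa
Tags of the 3′-most site alone leave Unigene60443 with 0, 4, 0, 0 and 2 copies in order of day, under the minimum level. Its profile therefore rests on 1 tag, and no second tag of comparable depth checks it.

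Some actin tags of different unigenes are nearly alike, with positions counted from 1 at the 5′ end of the tag and capitals here marking the bases that differ.
Unigene21986, site 1: catgttcccaggGatCgctga
Unigene60443, site 1: catgttcccaggCatTgctga
Unigene75395, site 2: catgtacgtagcTatccaggc
Unigene65018, site 1: catgtacgtagcCatccaggc
The first pair differs at G13C and C16T and the second at T13C alone. The number of mismatches allowed in mapping is not given in the sources used here, so the split of tags between Unigene75395 and Unigene65018, and between other near-identical actin copies, is uncertain. The tables give each tag to 1 unigene. Among the members' 94 tags, 1 other pair of members or neighbours lay within 2 differences, a 4-copy tag of a profilin (Unigene48873) and a tag of Unigene34162, which is not a member.

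**Figure D2:**
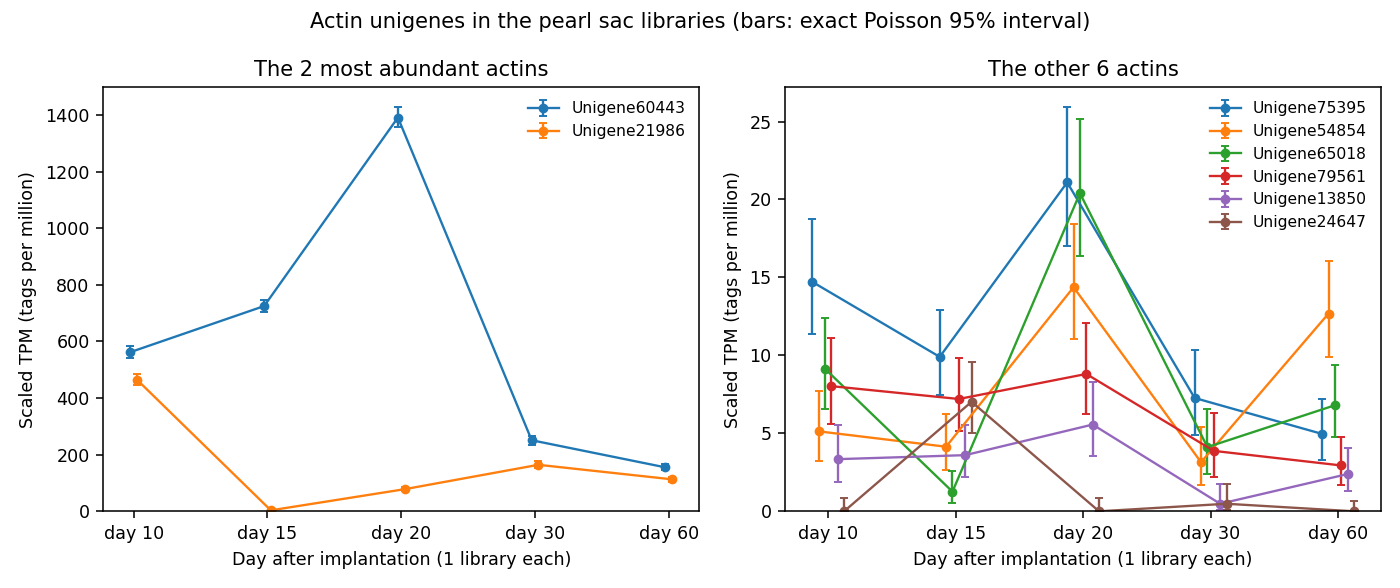
Scaled TPM (y axis, linear) of the 8 actin unigenes in the libraries of 5 days (x axis, days at equal spacing), with the exact Poisson 95% interval of each count. Unigene60443 tops the left panel on day 20 at 1391 while Unigene21986 is at 3.42 on day 15, and 5 of the 6 actins in the right panel are highest on day 20 with these factors, 3 of them with totals alone.

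Among the other 6 actins, 5 were highest on day 20, so that 6 of all 8 actins had their highest level there, compared with 20.1% of all unigenes of 1 scaled TPM or more. With recovered totals alone, applied to this tally after seeing the data, it was 4 of 8 beside 15.5%. The nearest days differ little in Unigene54854 (day 60 against day 20, 0.882, 0.617 to 1.26) and Unigene79561 (day 20 against day 15, 1.22, 0.763 to 1.96). Unigene65018, which matched an actin of the mosquito Psorophora ciliata, had 41, 7, 88, 17 and 37 tags in order of day. It was 7.25-fold lower on day 15 than on day 10 (3.22 to 19.2), 16.2-fold higher on day 20 (7.53 to 41.4) and 4.95-fold lower on day 30 (2.92 to 8.88). Low on day 15 and high on day 20, it moved in those steps as Unigene21986 did, and then turned down on day 30 with Unigene60443.

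Unigene75395, a match to cytoplasmic actin 2, had 66, 55, 91, 30 and 27 tags. No consecutive step passed the rule, and day 60 was 4.25-fold lower than day 20 (2.74 to 6.80). Unigene54854, a match to actin 1 of a nematode, had 23, 23, 62, 13 and 69 tags, with high values on days 20 and 60. It was 3.47-fold higher on day 20 than on day 15 (2.12 to 5.87), 4.56-fold lower on day 30 (2.48 to 9.05) and 4.03-fold higher on day 60 (2.21 to 7.94). The step to day 20 did not pass the rule with recovered totals alone as the scale.

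Unigene24647, with a match to an actin of the salmon louse, peaked on day 15. Its tags were 39 on day 15 and 2 on day 30, with none listed on days 10, 20 and 60. Day 15 was at least 10.5-fold above day 10 and at least 10.1-fold above day 20, and day 30 was 14.5-fold below it (3.75 to 124). Unigene13850, an actin of the clam Mactra veneriformis by match, had 15, 20, 24, 2 and 13 tags and was 11.5-fold lower on day 30 than on day 20 (2.85 to 100.3). Unigene79561 shares the non-muscle actin 6.2 match of Unigene21986 but had 36, 40, 38, 16 and 16 tags, and none of the consecutive ratios passed the rule.

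At some CATG sites the tags came in 2 versions that differ by 1 base, and libraries differed in which they held. Of the 61 members 8 had more than 1 version of a site, and in 4 the second version reached 10 copies in all. These 4 are given as version 1 and version 2, with the differing base in capitals.
Unigene21986, version 1: catgttcccagggatCgctga
Unigene21986, version 2: catgttcccagggatAgctga
Unigene65018, version 1: catgtaCgtagccatccaggc
Unigene65018, version 2: catgtaTgtagccatccaggc
Unigene79561, version 1: catggatacctgcAgattcca
Unigene79561, version 2: catggatacctgcGgattcca
Unigene59948, version 1: catggctCtgatgccactgag
Unigene59948, version 2: catggctTtgatgccactgag
The changes from version 1 to version 2 are C16A in Unigene21986, C7T in Unigene65018, A14G in Unigene79561 and C8T in Unigene59948, an Arp2/3 subunit.

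Version 2 of the actin Unigene21986 had 600 of 2083 tags on day 10, a share of 28.8% (exact binomial 95% interval 26.9% to 30.8%). On days 15, 20, 30 and 60 it was not listed beside 14, 337, 673 and 610 copies of version 1. Version 1 alone still stood at 1479 tags on day 10 and 14 on day 15. For Unigene79561 version 2 held, in order of day, 17 of 36 tags, none listed of 40, 6 of 38, 9 of 16 and 5 of 16. In Unigene65018 it held 9 of 31, none of 7, 8 of 84, 5 of 15 and none of 34.

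Unigene59948 listed only version 1 on days 10 and 60 (8 and 6 copies), only version 2 on day 15 (10 copies), and 3 and 2 copies of the versions on day 20. The day 15 library thus lacked version 2 at the 3 actin sites and lacked version 1 at the Arp2/3 site, in each case beside 19 tags or fewer except at Unigene79561. Sites with 2 versions are common in these libraries. Of the unigenes with a site of 20 or more copies, 13.9% to 22.2% had a second version at 10% or more of it, the highest share on day 10. Members did so in 3 of 8 cases on day 10, 0 of 11 on day 15, 1 of 11 on day 20, 0 of 5 on day 30 and 0 of 10 on day 60. Whether the versions are alleles, gene copies or misread bases was not tested.

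**Figure D3:**
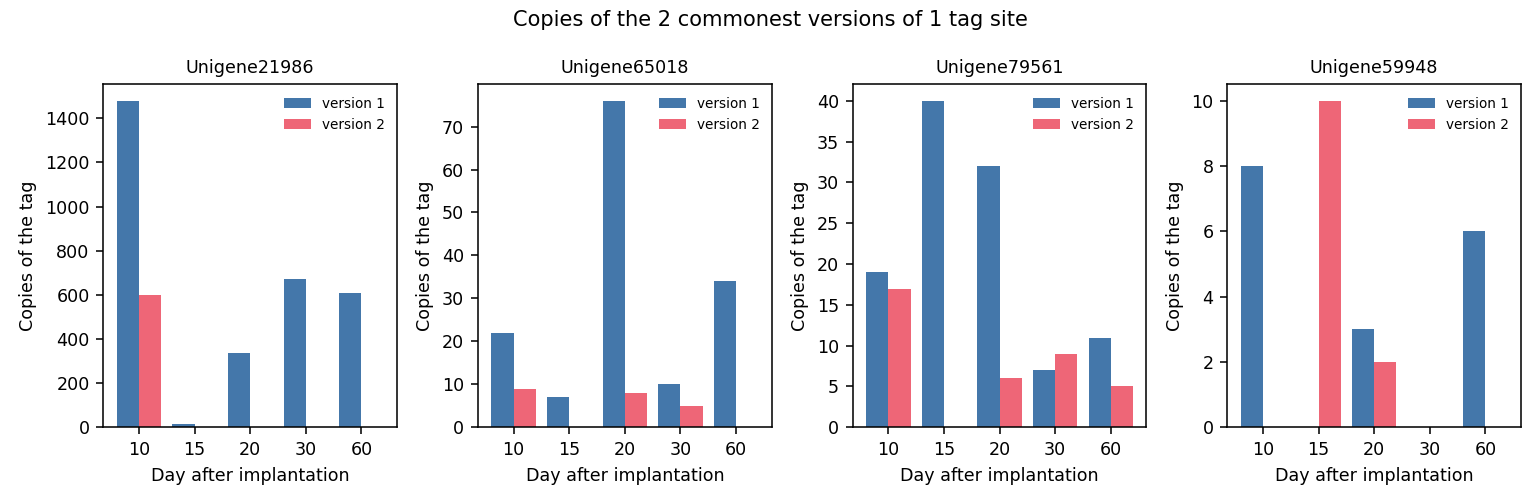
Copies (y axis, linear, own scale per panel) of the 2 commonest versions of 1 tag site in 4 members, by library (x axis, days at equal spacing). Version 2 of Unigene21986 appears on day 10 alone with 600 copies, and Unigene59948 has version 2 alone on day 15.

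Myosin heavy chains were listed at low level. The most abundant, Unigene69362, matched heavy chain 10, a non-muscle myosin II that contracts actin bundles in most cells, and had 35, 57, 59, 10 and 57 tags. Day 30 was lowest, 5.65-fold below day 20 (2.86 to 12.4), and day 60 was 4.33-fold above it (2.19 to 9.50). Days 10, 15, 20 and 60 gave no call among themselves (day 60 against day 15, 1.02, 0.695 to 1.50).

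Another non-muscle myosin II match, Unigene92264, had 4, 13, 0, 2 and 4 tags, and was at least 3.37-fold lower on day 20 than on day 15. Unigene21321, a match to muscle myosin heavy chain of a tick, had 0, 5, 0, 0 and 13 tags and was at least 3.29-fold higher on day 60 than on day 30. Unigene91856, with a weak match (e-value 5.84e-06) to a myosin heavy chain of a blood fluke, had 4, 0, 0, 10 and 0 tags. It was at least 3.48-fold higher on day 30 than on day 20 and at least 4.39-fold lower on day 60. The unconventional myosins, motors that carry vesicles or link membranes to actin, had at most 6 tags in any library (myosin-IX, Unigene89532, 2, 4, 6, 0 and 0). Matches to myosins of the mussel and the scallop had 2 or 3 tags wherever they were listed.

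Both myosin light chains had their highest level on day 60, as did 20.2% of all unigenes of 1 scaled TPM or more. The essential light chain Unigene26119, the only member with a Pinctada match, had 4, 4, 11, 7 and 33 tags, and day 60 was 6.80-fold above day 10 (2.42 to 26.4). The regulatory light chain Unigene67966, a match to the scallop protein, had 8, 5, 5, 12 and 21 tags, with a ratio of 2.16 for day 60 against day 10 (0.921 to 5.65), which did not pass the rule. The larger of 2 light chain kinases, Unigene92011, had 3 and 4 tags on days 20 and 30 and none listed elsewhere. Summed over the 4 unigenes of the class the level was 1.62 scaled TPM on day 15 (0.741 to 3.08) and 10.7 on day 60 (8.10 to 13.8). The essential light chain held 33 of the 58 tags of day 60, and the regulatory light chain was called in no pair of days. The sum therefore does not show a rise of the whole class. The difference of the essential light chain was no longer called when counting was limited to its 3′-most site.

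Muscle filament proteins were close to the limit of listing in every library. Their 9 unigenes summed to 4, 15, 27, 9 and 8 tags, at most 6.26 scaled TPM (4.13 to 9.11, day 20). A troponin T match (Unigene8288, e-value 5.51e-09), the subunit that anchors the calcium switch of the thin filament, had 0, 5, 16, 2 and 2 tags, and day 20 was at least 5.54-fold above day 10. Day 60 was 10.1-fold below day 20 (2.37 to 90.4). A second troponin T match (Unigene73553) had 2, 4, 0, 3 and 2 tags, and troponin I (Unigene58504), the inhibitory subunit, had 7 tags on day 20 and 2 on day 30.

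The remaining 6 were calponin-like (Unigene65831 and Unigene58391), titin-like (Unigene1127 and Unigene19716), twitchin (Unigene84666) and troponin C (Unigene89955), each with at most 4 tags in a library. Of the muscle markers, tropomyosin, paramyosin, catchin and muscle actin had no unigene by name. Names such as that of Unigene60443, actin alone, do not tell muscle from non-muscle actin. The list of 11 muscle marker unigenes, which adds Unigene21321 and a striated muscle myosin match, summed to between 0.892 and 6.26 scaled TPM. At day 20, 3 of the 11 were listed with 27 tags.

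Arp2/3 and actin-related proteins, which start and shape branched filament networks, gave no call between any pair of days. Only 4 or 5 of them were compared in each pair. Of all unigenes 6.06% to 15% were called higher and 7.4% to 14.9% lower, depending on the pair. With so few compared, the lack of calls does not show a steady level. For Unigene41135, day 30 was 4.83-fold lower than day 15 with a wide interval (1.68 to 19.1). The class sum was highest on day 15 at 21.4 scaled TPM (17.8 to 25.6) and lowest on day 30 at 5.09 (3.15 to 7.78). The Arp2/3 match Unigene86627 had 27, 44, 25, 11 and 43 tags. The putative arp2/3 matches Unigene41135 and Unigene67777, both named after a tick protein, had 12, 26, 7, 4 and 7 tags and 7, 22, 10, 4 and 11. All 5 members of the class at 1 scaled TPM or more had their lowest level on day 30, and 4 of them their highest on day 15. Of all unigenes at that level 34.2% had their lowest level on day 30, ties at 0 included, and 26.4% their highest on day 15. The ratio of day 15 to day 10 was 1.32 for Unigene86627 (0.797 to 2.21), 1.75 for Unigene41135 (0.852 to 3.81) and 2.54 for Unigene67777 (1.05 to 7.03). Matches to actin-related proteins 6 and 8, parts of nuclear chromatin remodelling complexes, had at most 5 tags.

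Of the actin-binding proteins, the profilin Unigene87076 had the most tags, with 8, 36, 29, 20 and 78 in order of day. Lowest on day 10 and highest on day 60, it differed 8.04-fold between them (3.88 to 19.3), and no consecutive step passed the rule. A second profilin, Unigene48873, was listed only on day 60, with 11 tags, at least 3.02-fold above day 10. The other profilin matches, Unigene28323 and Unigene84279, were listed on day 15 alone with 2 tags each. The capping protein alpha subunit Unigene92127, which blocks the growing end of filaments, had 16, 11, 33, 22 and 8 tags, and day 60 was 5.20-fold below day 20 (2.36 to 13.0). A single tag at site 4 from the 3′ end made up 71 of its 90 tags.

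Gelsolin, the calcium-activated severing protein, had 4, 7, 6, 6 and 4 tags in Unigene56467, which limits any ratio to wide intervals (day 15 against day 10, 1.41, 0.359 to 6.58). The other 4 gelsolin matches were listed on 1 to 3 days each, with at most 5 tags (Unigene91043, 2, 2, 5, 0 and 0). Anillin (Unigene83091), a scaffold of the ring that divides cells, was listed on day 15 alone with 11 tags, at least 2.96-fold above day 10. Alpha-actinin (Unigene91981), which crosslinks filaments, had 4 and 7 tags on days 10 and 15 and none listed later. Filamin A (Unigene76783), another crosslinker, had 5, 2 and 3 tags on days 20, 30 and 60 and none before.

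**Figure D4:**
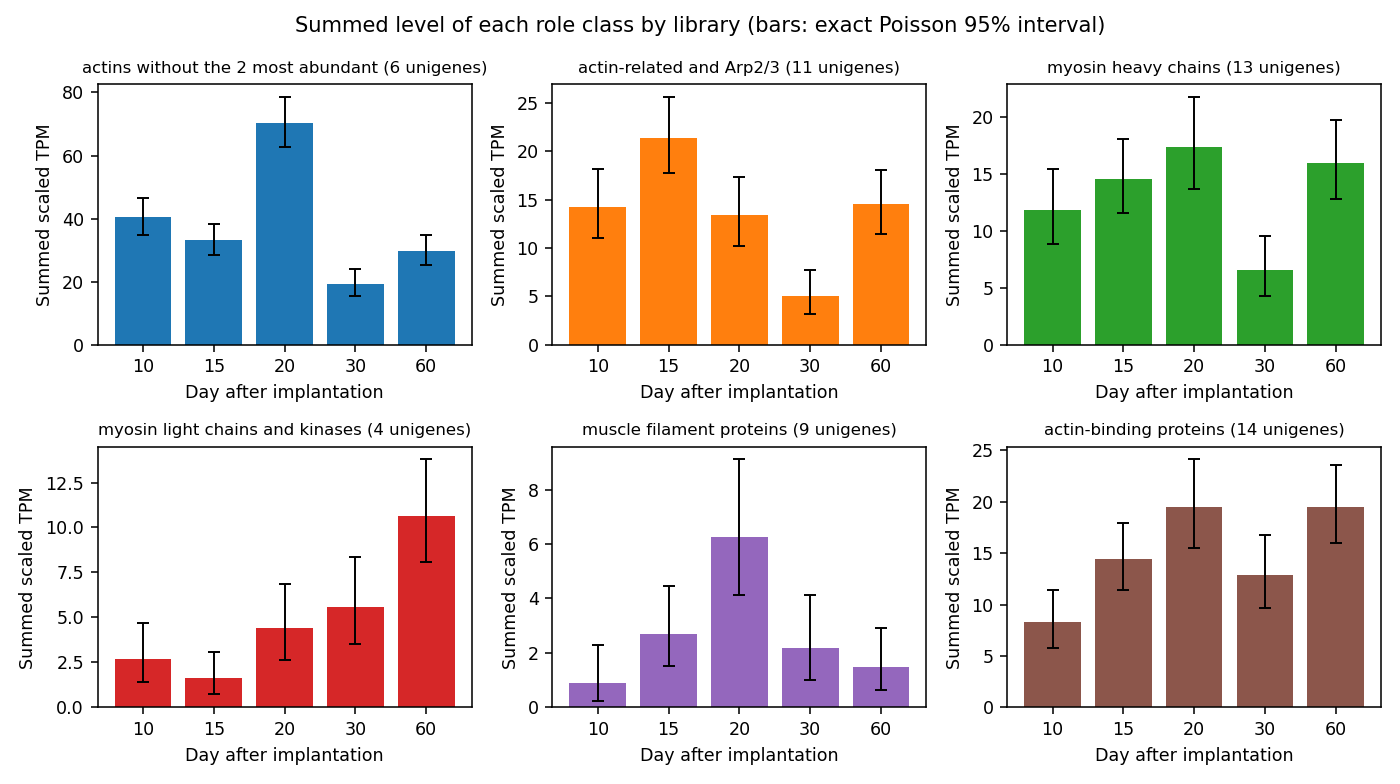
Summed scaled TPM (y axis, linear, own scale per panel) of 6 role classes in each library (x axis, days at equal spacing), with the exact Poisson 95% interval of the sum. The 2 most abundant actins are left out of the first panel, which is highest on day 20 at 70.2, while the Arp2/3 class is highest on day 15 and the light chains on day 60.

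Between consecutive libraries 4 to 6 members passed the rule, and their shares are set beside those of all unigenes. From day 10 to day 15, 2 of 21 members compared were higher (Unigene24647 and anillin) and 2 lower (Unigene21986 and Unigene65018), where 11% of 7243 unigenes were higher and 14.2% lower. From day 15 to day 20, 3 of 27 were higher, all actins (Unigene21986, Unigene54854 and Unigene65018), and 2 lower (Unigene24647 and non-muscle myosin II Unigene92264), beside 13.3% and 14.4% of 7085. With recovered totals alone as the scale, which moves all log2 ratios of this step by -0.37, the counts were 2 higher and 3 lower. The shares of all unigenes are not given on that scale.

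From day 20 to day 30, 5 of 24 were lower and 1 higher, beside 9.23% and 12.1% of 6576. The 5 were the actins Unigene60443, Unigene54854, Unigene65018 and Unigene13850 and the non-muscle heavy chain Unigene69362, and the member that was higher was the weak myosin match Unigene91856. For this step the 30 members that reached 1 scaled TPM had a median log2 ratio of -0.65, where that of all 9515 unigenes was 0.00. With a pseudocount of 5 it was -0.28, and over all 61 members it was 0.00. The other steps gave 0.05, 0.32 and 0.14 for days 15, 20 and 60. The day 30 library had the fewest listed tags, 600848, and whether this bears on the members' low values was not tested. Scaling by totals alone moved this step by -0.04 and gave the same counts.

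From day 30 to day 60, 3 of 21 were higher (Unigene54854, Unigene69362 and Unigene21321) and 1 lower (Unigene91856), beside 7.66% and 9.73% of 6631. By totals alone, a shift of 0.39, 6 members were higher and 1 lower, and the shares of all unigenes are not given on that scale. Day 60 against day 10 gave 4 of 19 higher and 2 lower, beside 7.93% and 12.2% of 6834 unigenes. Those higher were the profilins Unigene87076 and Unigene48873, the essential light chain and the muscle heavy chain Unigene21321. Those lower were the actins Unigene60443 and Unigene21986. Counting unlisted genes as 1 tag removed the calls on anillin, Unigene92264, Unigene91856, Unigene21321 and profilin Unigene48873.

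The other pairs of days share these libraries and are given side by side. Day 20 against day 10 gave 2 of 23 higher (Unigene60443 and troponin T Unigene8288) and 1 lower (Unigene21986), beside 8.1% and 11.6% of all unigenes. Day 30 against day 10 gave 0 of 19 higher and 2 lower, the actins Unigene60443 and Unigene21986, beside 6.06% and 7.4%. Day 30 against day 15 gave 2 of 22 higher and 3 lower, beside 13.8% and 12.8%. Day 60 gave 4 of 24 higher and 3 lower against day 15, beside 15% and 14.9%, and 1 of 25 higher and 5 lower against day 20, beside 11.9% and 13%. The 5 were Unigene60443, Unigene65018, Unigene75395, troponin T Unigene8288 and the capping protein.

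**Figure D5:**
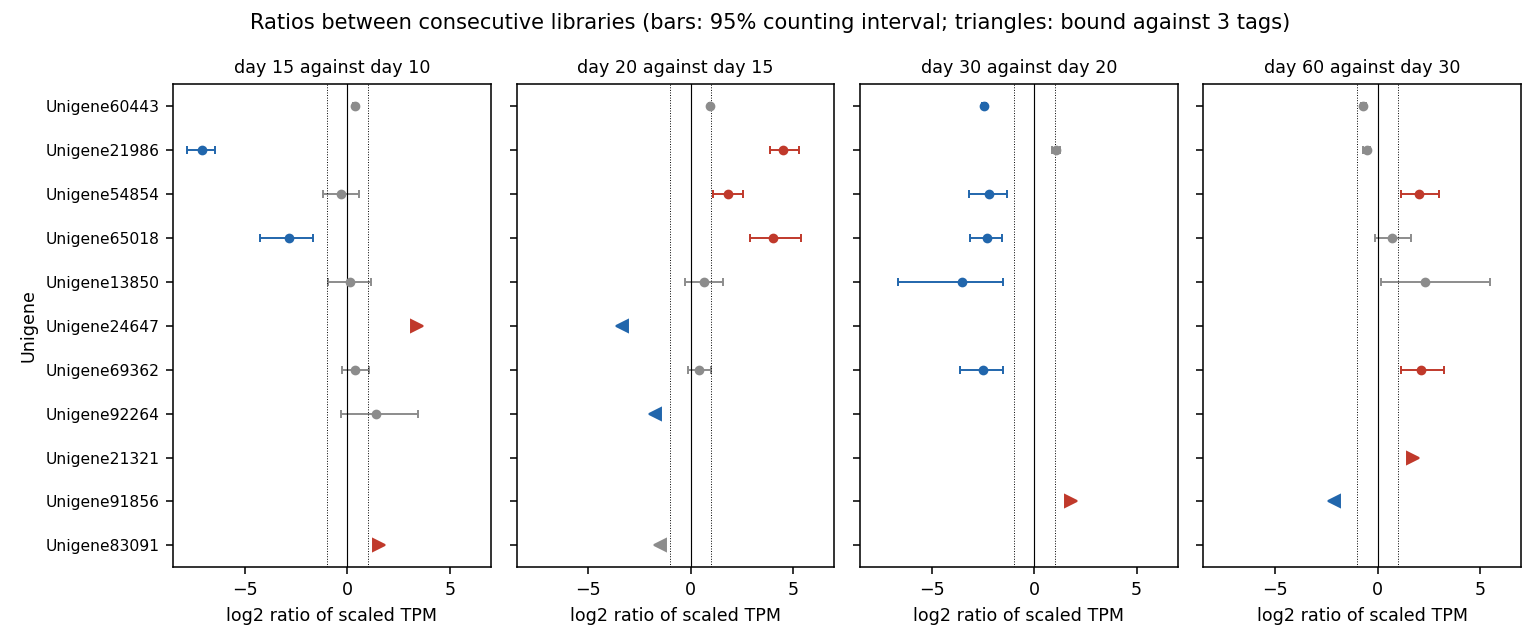
Log2 ratio of scaled TPM (x axis) between consecutive libraries for the 11 members that passed the rule in at least 1 of the 4 steps (y axis), with the 95% counting interval. Red marks a member called higher in the later library, blue one called lower and grey neither, triangles are bounds against 3 tags, and dotted lines mark 2-fold. In the step from day 20 to day 30 the 5 blue members lie to the left of the line.

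Other genes of the actin pathway, taken from a list of regulators and linkers by protein match, numbered 32 unigenes, of which 11 were compared between days 10 and 15. Of those 3 were higher and 1 lower on day 15, beside 11% and 14.2% of all unigenes. All 3 were spectrins, which form the membrane skeleton under the cortex, led by alpha-spectrin (Unigene61959) with 0, 35, 0, 2 and 7 tags. The lower one was the ezrin/radixin/moesin match Unigene91535, which ties filaments to the membrane, with 149, 63, 218, 123 and 135 tags, 2.93-fold lower on day 15 (2.17 to 4.00) and 4.45-fold higher on day 20 (3.35 to 5.99).

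A Wiskott-Aldrich syndrome-like protein (Unigene92808), an activator of Arp2/3, had 4, 0, 14, 0 and 2 tags. In the step to day 20 the list had 3 higher and 3 lower of 11, beside 13.3% and 14.4% of all unigenes. Alpha-spectrin and fascin (Unigene89356), which bundles filaments, were among the lower ones. Later steps and day 60 against day 10 gave 1 lower and 0 higher of 7 each. Of all unigenes 9.23%, 9.73% and 12.2% were lower in these comparisons, and 12.1%, 7.66% and 7.93% higher.

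Markers of other cells moved between the same libraries. The single hemocyte marker, allograft inflammatory factor 1, itself an actin-binding protein, stood at 159, 25.9, 35.2, 172 and 155 scaled TPM, low on days 15 and 20. The 21 unigenes of the cilia list, which includes beta-tubulin cofactors by word, summed to 11.6, 270.3, 9.04, 54.8 and 21.9. Of them 17 were listed on day 15 and 4 to 8 on other days. The beta-tubulin Unigene18140 alone held 877 of the list's 1501 tags on day 15 and 209 of 226 on day 30. The 27 mantle epithelium unigenes summed to 568, 89.5, 223, 897 and 82.4. The tyrosinase-like Unigene1470 held 1127 of their 2545 tags on day 10 and 2622 of 3704 on day 30, with none listed on other days. Others of the list ran differently, such as mantle gene 1 (Unigene89281) with 6, 47, 450, 2 and 23 tags. The part of these markers in the members' levels was not tested.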

How the data were processed

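In the deposited table of each of the 5 libraries the count of a unigene equals the copies of all its tags added up and was not normalized, as the headers and values show. The deposited TPM equals that count scaled to 1000000 tags of the library, without a length term. Tags are 21 bases long and begin with CATG, although the labels' protocol describes a TruSeq RNA preparation, and were taken as the tables give them. The sources used here do not give the aligner, mismatches, strand handling or assembly. Totals were recovered as count over TPM for unigenes of at least 5000 tags (listed tags were 600848 to 1339346). TMM factors from edgeR 4.0.16 (R 4.3.3) were 0.948, 1.16, 0.902, 0.878 and 1.15 in order of day. The rest ran in Python 3.11.15 with scipy 1.17.1, numpy 2.4.6 and, for figures, matplotlib 3.10.9. The ratio rule was tested on simulated counts with counting error alone, so that test does not cover the spread between libraries. Medians used log2(scaled TPM + 1).

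The members, lists and rule were chosen with earlier results of these data known. The rule for named genes took every member of 10 scaled TPM or more, every member that peaked and the 3 with most tags in each role class. Unigene79561, Unigene13850, Unigene59948, Unigene91856, Unigene83091, Unigene48873, the other members with few tags and the pathway examples were named after their values were seen. Alternatives tried were no factor, RLE factors, minimum levels of 10 and of none, the 3′-most site alone, unlisted as 1 tag, a 1.5-fold threshold, a pseudocount of 5 and matches of e-value 1e-10 or less. Some genes of the pathway list are counted but not reported here by name.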

Additional observations from a re-analysis of the deposited data

How the results depend on the processing

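No paired analysis was possible because each day has 1 library, and for the same reason no replicate could be left out. Calls were rerun for the 4 consecutive steps, day 60 against day 10 and the peaks only. Shares of all unigenes called or peaking are given with the main settings only, so the member counts here have none beside them. RLE factors left these counts of members as they were, except 3 for 2 lower on day 20 against 15. Highest days were rerun with no factor and with RLE factors, and with RLE 6 of 8 actins stayed highest on day 20. With a pseudocount of 5 the medians were -0.28 to 0.17, and with no minimum each was 0.00. With no factor 6 members were higher on day 60 against day 30 and 4 peaked. The medians of the consecutive steps were then 0.31, 0.00, -0.52 and 0.20, where the TMM factors gave 0.05, 0.32, -0.65 and 0.14. A minimum of 10 scaled TPM left 4 to 6 members a comparison, with 0 higher and 1 lower on day 15 against 10 (median -0.25), 0 lower on day 20 against 15, 0 higher on day 30 against 20 (median -1.89), 0 lower on day 60 against 30, 1 higher on day 60 against 10, and 1 peak. The 3′-most site alone gave 1 lower on day 20 against 15 and 4 of 19 lower on day 30 against 20. In the latter step Unigene60443 had no tag left to compare. The same setting gave 2 higher and 1 lower on day 60 against 10, where the log2 ratio of Unigene60443 turned from lower to 0.45 on 0 and 2 tags. Counting unlisted genes as 1 tag gave 1 higher on day 15 against 10, 1 lower on day 20 against 15, 0 higher on day 30 against 20, 0 lower on day 60 against 30 and 2 higher on day 60 against 10. A 1.5-fold threshold gave 7 higher on day 20 against 15, 2 higher and 8 lower on day 30 against 20, 7 higher and 2 lower on day 60 against 30, and 6 peaks. Requiring an e-value of 1e-10 or less removed 5 members, Unigene91856 among them, leaving 0 higher on day 30 against 20 and 0 lower on day 60 against 30. The cause of the other changes was not tested.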
